A study of Mus musculus with 18 samples.

Results

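The MiT/TFE transcription factors and the proteins that hold them at the lysosome were followed in WEHI-231 cells, a murine immature B cell lymphoma line. The 10 genes were chosen by name: the factors Tfeb, Tfe3 and Mitf, the folliculin complex genes Flcn, Fnip1 and Fnip2, the Rag GTPase genes Rraga, Rragc and Rragd, and the lysosomal calcium channel gene Mcoln1. Each was matched by symbol to 1 of the 55487 Ensembl gene entries counted in all 18 RNA sequencing libraries, and 9 of the 10 were among the 15318 genes with enough counts for testing. Libraries came from parental cells and from #A-59 and #B-20, clones in which Tfeb was targeted with Cas9 ribonucleoproteins. All 3 genotypes were taken without stimulation (0 h) or after 6 and 18 h with F(ab')2 fragments against IgM at 10 µg/ml, which crosslink the B cell receptor (BCR), with 2 libraries from independent experiments in each of the 9 groups. Each clone is a single line grown from 1 cell, so that the effect of the Tfeb mutation and other differences between clones cannot be told apart. No untreated cells are labelled with 6 or 18 h, so that stimulation and time in culture cannot be told apart either.

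Between 11223588 and 29655262 reads were counted on genes per library. Levels are given as counts-per-million (CPM) after scaling of the libraries by edgeR's TMM method, and differences as log2 fold changes from edgeR's quasi-likelihood fit with the Benjamini-Hochberg adjusted p-value. A gene is said to have risen, fallen or differed where the adjusted p was under 0.01, and is called a DEG where the log2 fold change was also above 1 or below −1. B cell markers were high in every library (Pax5 between 1017 and 2384 CPM, Cd79a between 794 and 1935 CPM). The libraries differed in how gene levels followed GC content: Spearman's rho of a library's deviations with GC content was 0.47 in replicate 1 of #A-59 at 6 h and −0.37 in replicate 1 of #B-20 at 0 h, and lay between −0.29 and 0.32 in the other libraries. Where removing this trend moved a member's difference across the threshold, both values are given.

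In resting, nutrient-replete cells the kinase complex mTORC1 phosphorylates TFEB and TFE3 at the lysosomal surface and keeps them in the cytosol. Rag GTPases, which act as pairs of RagA or RagB with RagC or RagD, bring the factors to the kinase, and folliculin with FNIP1 or FNIP2 acts on RagC and RagD as the GTPase-activating protein that makes this possible. In non-lymphoid cells, calcium leaving the lysosome through mucolipin 1 activates calcineurin, which removes the phosphates. In human Ramos B cells the study found no effect of a calcineurin inhibitor on the move of TFEB to the nucleus. In the nucleus the factors bind E-box elements in genes of lysosomes and autophagy, and in other cell types Flcn, Rragc, Rragd and Mcoln1 themselves are known targets, which closes a feedback loop.

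The core E-box of these factors is the palindrome CACGTG, and it was looked for in the RefSeq promoters of the 10 genes (GRCm38.p6, 250 bases before to 50 after each start site). All 10 genes had an entry, 15 promoters in all, and 3 promoters held the motif, those of Fnip1, Rragc and Mcoln1. Among all 32851 promoters of this length, 7.15% held it. The 150 bases before each of these start sites are shown 5′ to 3′ with every CACGTG in capitals, since they are the places in these genes where the factors' core element is written. They lie on the plus strand at chr11:54438029-54438178 (Fnip1), chr4:123917283-123917432 (Rragc) and chr8:3500369-3500518 (Mcoln1).
Fnip1: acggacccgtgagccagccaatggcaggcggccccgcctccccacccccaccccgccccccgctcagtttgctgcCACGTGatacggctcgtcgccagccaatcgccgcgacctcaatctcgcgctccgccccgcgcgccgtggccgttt
Rragc: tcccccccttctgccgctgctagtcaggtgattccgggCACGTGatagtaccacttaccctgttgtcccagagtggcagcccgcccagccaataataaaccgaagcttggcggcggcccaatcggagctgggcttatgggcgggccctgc
Mcoln1: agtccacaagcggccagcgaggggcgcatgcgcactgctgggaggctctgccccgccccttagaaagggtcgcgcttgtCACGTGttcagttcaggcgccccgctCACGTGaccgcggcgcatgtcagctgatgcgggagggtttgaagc
The Mcoln1 promoter held the motif at 2 places, and the one nearer the start site was part of the longer TCACGTGA, which 0.974% of all promoters held. In the promoters of the other 7 genes these letters were not found in this window.

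Per length of exon, the genes spanned a wide range of levels in untreated parental cells. Rraga and Rragc were highest, at 23.6 and 21.5 RPKM (CPM divided by the length of all exons in kilobases, mean of 2 libraries). Tfeb followed at 11.8 RPKM, Fnip1 at 10.3, Flcn at 8.87, Tfe3 at 6.09 and Mcoln1 at 3.35 RPKM. Mitf at 0.167 RPKM and Rragd at 0.0969 RPKM were far below these. The libraries of neighbours in this order did not overlap, although with the length of the longest transcript in place of all exons Rragc and Tfeb stood above Rraga. Fnip2, the paralog of Fnip1, had 0 counts in 13 of the 18 libraries and at most 2 counts in any, so that no difference in Fnip2 was detectable at this depth. Tfec, the remaining member of the MiT/TFE family, had 0 counts in 16 libraries and at most 1 count in the others. A count of 0 is compatible with up to 3 counts, by counting error alone.

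Tfeb, the targeted gene, was lower in every library of both clones than in every parental library of any time. It ranged from 79.2 to 99.9 CPM in parental cells, from 25.5 to 40.5 CPM in #A-59 and from 34.2 to 54.1 CPM in #B-20. Counts give neither the sequence of the transcripts that remain nor the protein made from them. The clones differed from each other in what remained. #B-20 was above #A-59 by a log2 fold change of 0.51 at 0 h (standard error 0.11, adjusted p = 0.00436) and of 0.67 at 6 h (standard error 0.11, adjusted p = 0.000206), whereas the 0.34 at 18 h did not pass (adjusted p = 0.027). The 0 h difference lost its call without either #A-59 library of that time or without replicate 2 of #B-20, with values between 0.41 and 0.60 over all libraries left out in turn. Tfeb is rich in GC (60.2% of its longest transcript). With the GC trend removed, #B-20 was above #A-59 by 0.79, 0.97 and 0.44 at 0, 6 and 18 h, and all 3 differences passed. In the same fit the log2 fold change of #B-20 against parental cells was −0.88 at 0 h and −0.96 at 18 h, in place of −1.14 and −1.05, and no longer reached the threshold of a DEG.

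**Figure D1:**
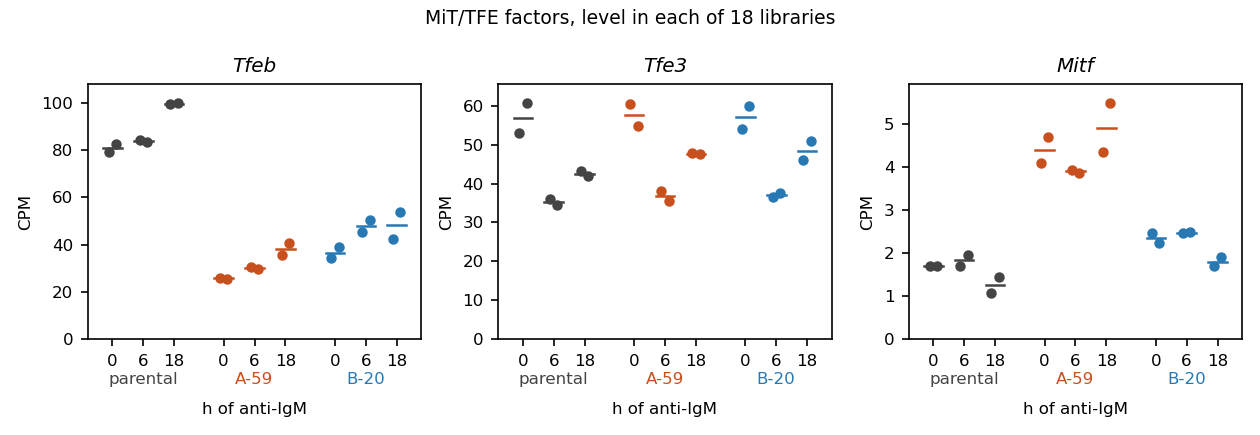
CPM of Tfeb, Tfe3 and Mitf (y axis, from 0) in parental, A-59 and B-20 cells after 0, 6 and 18 h of anti-IgM (x axis). Each point is 1 library and each line the mean of 2; Tfeb is lower in both clones, Mitf is higher in A-59, and Tfe3 is lower at 6 h in every genotype.

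In stimulated parental cells Tfeb mRNA stayed close to its level in untreated ones. Parental libraries held 79.2 and 82.8 CPM untreated, 84.3 and 83.6 CPM after 6 h and 99.7 and 99.9 CPM after 18 h of stimulation, so that all stimulated libraries were above both untreated ones, but the log2 fold change of 0.30 at 18 h did not pass (adjusted p = 0.028). In parental cells 62.3% and 76.1% of all tested genes did not overlap with untreated cells at 6 and 18 h. In #A-59 Tfeb rose by 18 h, from 25.9 and 25.5 to 35.4 and 40.5 CPM (log2 fold change 0.56, standard error 0.11, adjusted p = 0.000563). This call was lost without replicate 2 of #A-59 at 18 h (log2 fold change 0.44). In #B-20 the 18 h value of 0.39 did not pass (adjusted p = 0.0102), and with the GC trend removed it was 0.16 (adjusted p = 0.283).

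Tfe3, the paralog that shares TFEB's lysosomal regulation and many of its targets, passed in no comparison between genotypes. Parental libraries held 53.1 and 60.6 CPM untreated, 36.0 and 34.4 CPM after 6 h and 43.2 and 42.0 CPM after 18 h of stimulation. The corresponding values of #A-59 were 60.4 and 54.8, 38.0 and 35.6, and 47.7 and 47.7 CPM. In #B-20 they were 54.1 and 59.9, 36.6 and 37.6, and 46.0 and 51.0 CPM. The log2 fold changes of the clones against parental cells lay between 0.01 and 0.19 over the 6 comparisons, with adjusted p-values from 0.177 to 0.978. The 95% intervals reached from −0.19 to 0.39, so that changes as large as those of Tfeb lay outside them.

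Tfe3 did differ between stimulated and untreated cells. It fell by 6 h in all 3 genotypes, with log2 fold changes of −0.69 in parental cells (standard error 0.09, adjusted p = 5.04e-05), −0.65 in #A-59 (standard error 0.10, adjusted p = 0.000207) and, for #B-20 cells, −0.62 (standard error 0.10, adjusted p = 0.000961). All 6 libraries at 6 h were below all 6 untreated ones. By 18 h Tfe3 lay between its 0 h and 6 h levels: the log2 fold change against untreated cells was −0.42 in parental cells (adjusted p = 0.00161), while −0.27 in #A-59 and −0.23 in #B-20 did not pass (adjusted p = 0.025 and 0.0627). With the GC trend removed the value of #B-20 was −0.30 and passed (adjusted p = 0.00697). The parental 18 h call was lost without replicate 2 of either time (values between −0.54 and −0.35), and the 6 h call of #B-20 without either of its 6 h libraries or replicate 2 at 0 h (values between −0.70 and −0.55).

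Mitf, best known as the lineage factor of melanocytes and also used by mast cells and osteoclasts, was low in these B cells, at 12 to 121 counts per library. It was higher in #A-59 than in parental cells at all times. Parental libraries held 1.70 and 1.70 CPM untreated, 1.70 and 1.96 CPM after 6 h and 1.07 and 1.45 CPM after 18 h of stimulation. In #A-59 Mitf was at 4.10 and 4.71, 3.94 and 3.86, and 4.35 and 5.49 CPM, so that no #A-59 library overlapped with a parental one. The log2 fold changes, with standard errors, were 1.36 ± 0.20, 1.09 ± 0.20 and 1.91 ± 0.23 at 0, 6 and 18 h (adjusted p = 5.47e-05, 0.000393 and 6.09e-06), each a DEG. The call at 6 h was lost without replicate 1 of parental cells at 6 h, at a log2 fold change within 0.98 to 1.19 over all leave-outs.

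In #B-20 Mitf was at 2.48 and 2.23 CPM untreated, 2.46 and 2.48 CPM after 6 h and 1.71 and 1.90 CPM after 18 h of stimulation. These values were above those of parental cells of the same time in every library. Such separation, in either direction, held for 61.7%, 66.8% and 62.1% of all tested genes at 0, 6 and 18 h. The log2 fold changes of Mitf, 0.47, 0.43 and 0.47, did not pass (adjusted p = 0.169, 0.174 and 0.212). The difference between the clones passed at 0 h (log2 fold change of #B-20 against #A-59 −0.90, standard error 0.20, adjusted p = 0.0051) and at 18 h (−1.44, standard error 0.20, adjusted p = 2.88e-05, a DEG), and missed the threshold at 6 h (−0.66, adjusted p = 0.0189). At 0 h DESeq2 did not call it, nor did fits without any 1 of the 4 libraries compared (values between −1.0 and −0.81). With the GC trend removed, the 6 h difference passed as well, at −0.87.

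Markers of the cells that use Mitf were looked at beside it. The summed level of 6 macrophage markers moved in the same direction, from 3.15 to 3.56 CPM in untreated parental cells to 8.09 to 10.0 CPM in untreated #A-59 cells, from 2.74 to 2.80 CPM to 11.3 to 12.2 CPM at 6 h, and from 9.08 to 9.63 CPM to 28.2 to 28.3 CPM at 18 h. The sum in #B-20 was 3.82 to 4.71, 3.33 to 3.54 and 7.57 to 7.83 CPM at the 3 times. Most of this sum in #A-59 was Itgam, an integrin chain, which was higher than in parental cells at all 3 times (log2 fold change 2.65, 3.87 and 1.74). Itgam was also higher in #B-20 than in parental cells at 0 and 6 h (1.37 and 1.57, adjusted p = 0.00185 and 0.00421), where Mitf did not pass. At 18 h the #B-20 value of Itgam was −0.29 (adjusted p = 0.358). Within parental cells Itgam rose by 18 h (2.61, adjusted p = 2.09e-07). In #A-59 Csf1r, the receptor of a macrophage growth factor, also had more counts than in parental cells at 6 h (57 and 16 against 7 and 8, log2 fold change 2.34). Csf1r entered the test only through #A-59 libraries, so this difference is given as description only. Adgre1 and Mrc1 did not pass in #A-59 at any time, with adjusted p-values from 0.0146 to 0.806. In untreated #A-59 cells Csf1r, Adgre1 and Mrc1 lay below parental cells, against the direction of the sum (log2 fold change −0.87, −0.62 and −1.52). None of these passed (adjusted p = 0.648, 0.319 and 0.0146). Lyz2 was at 0 in 16 and Cd14 at 0 in 17 of the 18 libraries. Of the 4 melanocyte markers, Tyr and Mlana were at 0 in all libraries and Dct in 15, while Pmel, a melanosome protein gene, lay between 2.81 and 7.66 CPM. Pmel was higher in #A-59 than in parental cells at 6 and 18 h (log2 fold change 0.61 and 0.70, adjusted p = 0.00868 and 0.00654). The mast cell genes Cpa3, Mcpt4 and Fcer1a were at 0 in all libraries. The part of these markers in the Mitf difference was not tested.

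The make-up of the family per exon length changed with genotype and with time. In untreated parental cells Tfeb gave 65.4% ± 1.35 (SD, n = 2) of the summed RPKM of Tfeb, Tfe3, Mitf and Tfec. In #A-59 its share was 36.1% ± 1.07 and that of Tfe3 59.6% ± 1.72, and in #B-20 Tfeb gave 45.7% ± 0.721 and Tfe3 52.3% ± 0.416. Tfe3 was thus the more abundant of both transcripts in untreated cells of either clone. After 6 h the share of Tfeb was 75.6% ± 0.371 in parental, 50.3% ± 0.748 in #A-59 and 62.3% ± 1.39 in #B-20 cells. It stood at 75.6% ± 0.279, 49.6% ± 2.04 and 56.4% ± 2.43 at 18 h. At each time the libraries of the 3 genotypes did not overlap in this share. Mitf gave 0.928% ± 0.0498 in untreated parental cells and 4.2% ± 0.582 in untreated #A-59 cells. Shares depend on the length assumed: with the longest transcripts Tfeb took 73.2%, 44.7% and 54.8% in untreated parental, #A-59 and #B-20 cells, which puts Tfeb above Tfe3 (42.9%) in #B-20 but not above the 50.3% of Tfe3 in #A-59.

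**Figure D2:**
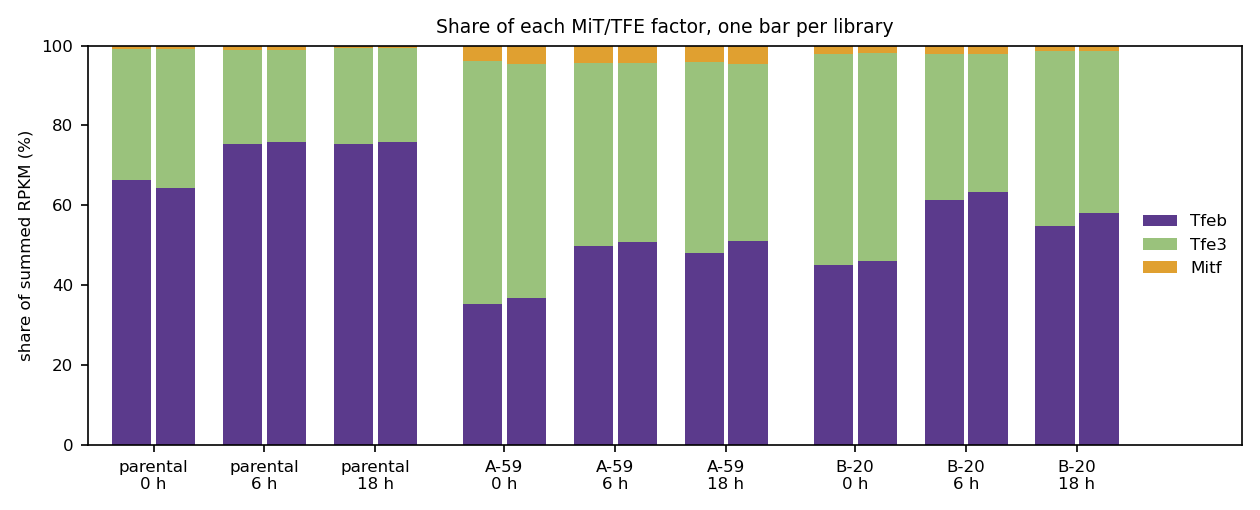
Share of Tfeb, Tfe3 and Mitf in their summed RPKM over all exons (y axis, percent), with 1 stacked bar per library and 2 bars for each genotype and time of anti-IgM (x axis). The Tfeb share is near 65.4% in untreated parental cells and 36.1% in untreated A-59 cells, and is larger after stimulation in each genotype.

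Folliculin and its partner FNIP1 form the GTPase-activating complex for RagC and RagD. Flcn did not pass between either clone and parental cells at any time, with log2 fold changes between −0.20 and 0.22. It did differ between stimulated and untreated parental and #A-59 cells. In parental cells Flcn rose from 64.8 and 69.0 CPM to 91.3 and 98.8 CPM at 6 h (log2 fold change 0.51, standard error 0.10, adjusted p = 0.00155) and stood at 88.4 and 90.8 CPM at 18 h (0.42, standard error 0.10, adjusted p = 0.00202). In #A-59 it rose from 75.7 and 80.6 to 115.7 and 103.3 CPM at 6 h (0.49, adjusted p = 0.00311), and the 91.9 and 101.0 CPM at 18 h were 0.30 above untreated cells (adjusted p = 0.0181), a value of 0.32 that passed with the GC trend removed (adjusted p = 0.00596). In #B-20, with 60.1 and 70.5 CPM untreated, 79.5 and 86.1 CPM after 6 h and 74.0 and 83.9 CPM after 18 h of stimulation, the values of 0.34 and 0.27 did not pass (adjusted p = 0.0805 and 0.0406).

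Stimulated libraries thus held more Flcn than untreated ones of the same genotype in every case. Such separation, in either direction, was common among all tested genes. At 6 and 18 h it held for 62.3% and 76.1% in parental cells, 47.9% and 71.7% in #A-59, and 46.9% and 67% in #B-20. The calls rested on few libraries: the parental 18 h call was lost without any 1 of the 4 libraries compared (values between 0.35 and 0.44), that at 6 h without either untreated library or replicate 2 at 6 h (0.45 to 0.56), and that of #A-59 without either untreated library or replicate 1 at 6 h (0.39 to 0.57). At 6 h Flcn was lower in #B-20 than in #A-59 (log2 fold change −0.41, standard error 0.10, adjusted p = 0.00455). With the GC trend removed this difference was −0.25 and no longer passed, nor did it without replicate 1 of #A-59 or either #B-20 library at 6 h (values between −0.49 and −0.32). An antisense gene, Gm16062, covers 4.69% of the exon bases of Flcn, and since counting did not use strand, reads of the overlap cannot be assigned to one of them.

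In Fnip1 the pair of #A-59 libraries at 6 h stood apart from each other. Parental cells held 105.7 and 96.5 CPM untreated, 123.3 and 128.4 CPM after 6 h and 136.4 and 138.0 CPM after 18 h of stimulation. In #A-59 the values were 92.9 and 108.4, 83.9 and 135.5, and 153.0 and 146.0 CPM. In #B-20 they were 107.0 and 97.8, 120.1 and 110.2, and 115.1 and 113.2 CPM. Fnip1 rose in #A-59 by 18 h (log2 fold change 0.57, standard error 0.15, adjusted p = 0.00427), a call lost without replicate 1 at 0 h or either 18 h library (values between 0.46 and 0.68), while the parental value of 0.44 at 18 h did not pass (adjusted p = 0.0219) and that of #B-20 was 0.16 (adjusted p = 0.443).

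The GC content of Fnip1 is the lowest of the tested members, 38.9% of its longest transcript. Removing the GC trend brought the #A-59 libraries at 6 h to 115.1 and 134.2 CPM, in place of 83.9 and 135.5 CPM. In that fit Fnip1 was lower in #B-20 than in #A-59 at 6 h (log2 fold change −0.28), against a log2 fold change of 0.08 without the correction (adjusted p = 0.728), and the parental response passed at both times (0.33 at 6 h and 0.39 at 18 h). The rise of Fnip1 in #B-20 by 18 h passed as well (0.32 in place of 0.16), as did the differences of #B-20 from parental cells at 6 h (−0.34 in place of −0.13) and from #A-59 at 18 h (−0.42 in place of −0.39). The sign of the difference between the clones at 6 h also turned with the library left out, from −0.24 to 0.45.

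**Figure D3:**
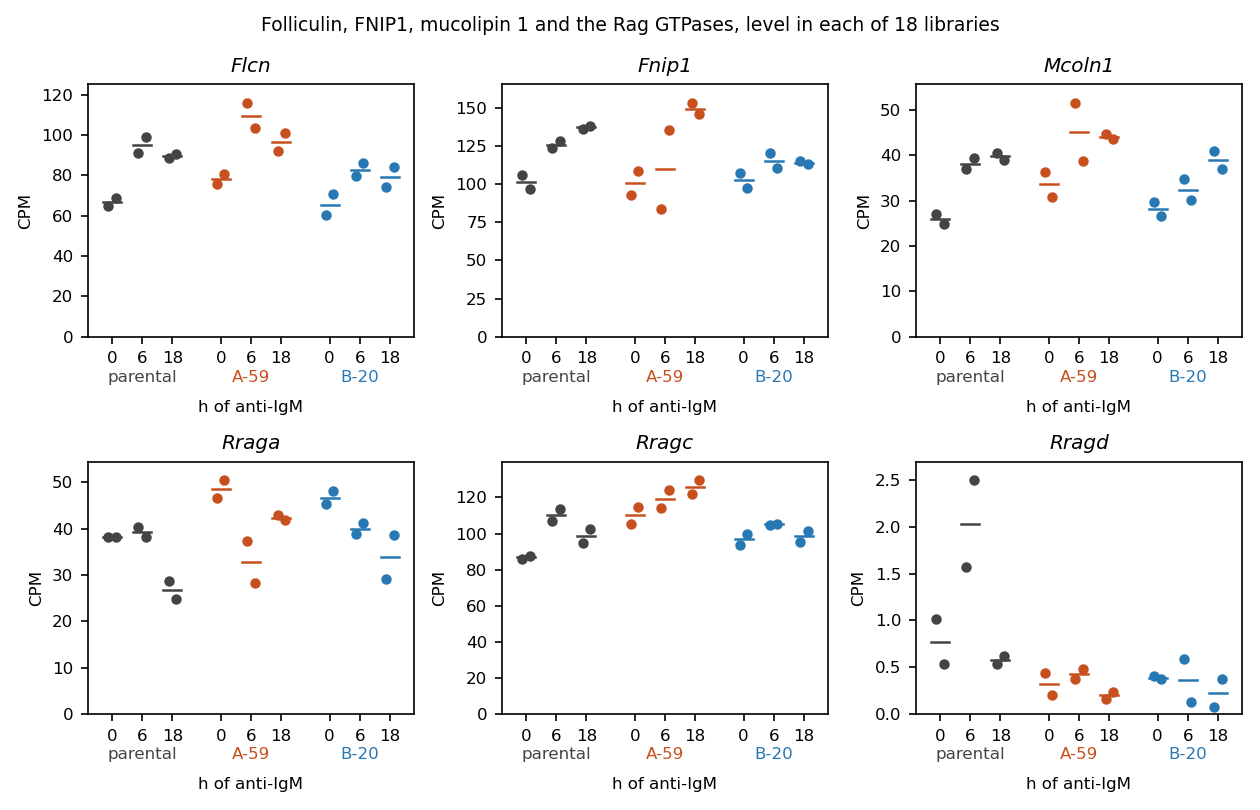
CPM of Flcn, Fnip1, Mcoln1, Rraga, Rragc and Rragd (y axes, from 0, each with its own scale) in parental, A-59 and B-20 cells after 0, 6 and 18 h of anti-IgM (x axis). Each point is 1 library and each line the mean of 2; Flcn and Mcoln1 are higher after stimulation, and Rragd is highest in parental cells at 6 h.

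The Rag GTPases did not move together. Rraga, a short gene whose product pairs with RagC or RagD, fell in parental cells between 0 and 18 h, from 38.2 and 38.2 to 28.6 and 24.8 CPM (log2 fold change −0.52, standard error 0.13, adjusted p = 0.00394), with 40.4 and 38.2 CPM at 6 h. In #A-59 Rraga stood at 46.6 and 50.4 CPM untreated, 37.4 and 28.4 CPM after 6 h and 42.9 and 41.8 CPM after 18 h of stimulation, and in #B-20 at 45.3 and 48.1, 38.8 and 41.3, and 29.2 and 38.7 CPM. At 18 h #A-59 was above parental cells (0.67, standard error 0.14, adjusted p = 0.00159). Within #A-59 Rraga fell by 6 h (−0.55, adjusted p = 0.00861). The first of these calls was lost without replicate 2 at 0 or 18 h or replicate 1 at 0 h (values between −0.66 and −0.44), the second without replicate 1 of #A-59 or replicate 2 of parental cells at 18 h (0.56 to 0.79), and the third in 13 of 18 leave-outs (−0.78 to −0.37). In #B-20 the 18 h value of −0.46 had an adjusted p of 0.0102, and of 0.00561 with the GC trend removed. Rragb, the paralog that can stand in for Rraga, had at most 1 count in each library.

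Rragc varied least of the 10 genes, 1.51-fold between its lowest and its highest library. Parental cells held 86.0 and 87.6 CPM untreated, 107.0 and 113.8 CPM after 6 h and 94.7 and 102.4 CPM after 18 h of stimulation. In #A-59 it was at 105.2 and 114.9, 114.2 and 124.2, and 121.8 and 129.4 CPM, and in #B-20 at 93.8 and 99.9, 104.9 and 105.5, and 95.3 and 101.6 CPM. Rragc was higher in #A-59 than in parental cells at 0 h (log2 fold change 0.34, standard error 0.08, adjusted p = 0.00748) and at 18 h (0.35, standard error 0.08, adjusted p = 0.00675). It rose in parental cells by 6 h (0.35, adjusted p = 0.0084), and was lower in #B-20 than in #A-59 at 18 h (−0.35, adjusted p = 0.0042).

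All 4 of these Rragc differences lay close to the threshold. The call was lost in 13 of 18 leave-outs for #A-59 at 0 h (values between 0.28 and 0.41), in 5 for #A-59 at 18 h (0.31 to 0.41), in 12 for the parental response (0.30 to 0.39) and in 4 for the clones at 18 h (−0.40 to −0.31). An antisense gene, Gm12905, covers 14.9% of the exon bases of Rragc, and reads there cannot be assigned to a strand.

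Rragd, a known target of the MiT/TFE factors that is strongly induced by them in other cell types, was the member with the largest difference between clones and parental cells at 6 h, from few counts. The parental libraries held 28 and 13 counts at 0 h, 36 and 61 counts at 6 h, and 6 and 12 counts at 18 h. In #A-59 there were 13 and 4, 10 and 8, and 3 and 4 counts, and in #B-20 6 and 6, 12 and 2, and 2 and 10 counts. After scaling, parental cells at 6 h held 1.57 and 2.5 CPM, and no other library had more than 1.01 CPM. At 6 h Rragd met the thresholds of a DEG in both clones. The log2 fold changes were −2.26 in #A-59 (standard error 0.49, adjusted p = 0.00163) and, for #B-20 cells, −2.38 (standard error 0.52, adjusted p = 0.00224). Rragd entered the test only through parental libraries, where it was highest, so these calls are given as description only.

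At 0 and 18 h the values were −1.18 and −1.55 in #A-59 and −1.01 and −1.40 in #B-20, in the same direction but not past the test (adjusted p = 0.184, 0.189, 0.284 and 0.158). The increase of Rragd in parental cells at 6 h, a log2 fold change of 1.37, did not pass either (standard error 0.43, adjusted p = 0.0414). In the clones the corresponding values were 0.29 and 0.00, and the interaction of clone and stimulation did not pass. The call at 6 h depended on single libraries. It was lost in both clones without parental replicate 2, and also without replicate 1 of #A-59 or replicate 2 of #B-20 at 6 h, with values from −2.55 to −1.89 in #A-59 and from −3.92 to −1.78 in #B-20. With at least 10 counts asked of every library Rragd was not tested.

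Mcoln1, the gene of the lysosomal calcium channel, rose with stimulation. In parental cells it went from 27.1 and 24.9 CPM to 36.9 and 39.4 CPM at 6 h (log2 fold change 0.55, standard error 0.13, adjusted p = 0.00524) and 40.6 and 39.0 CPM at 18 h (0.61, standard error 0.13, adjusted p = 0.000678). In #B-20 it was at 29.7 and 26.7 CPM, 34.8 and 30.1 CPM, and 41.0 and 37.0 CPM, and passed at 18 h (0.47, standard error 0.13, adjusted p = 0.00744). In #A-59 the untreated cells held 36.3 and 30.9 CPM, and the 51.5 and 38.8 CPM of 6 h and 44.6 and 43.5 CPM of 18 h were 0.43 and 0.39 above them on the log2 scale (adjusted p = 0.0278 and 0.0169). With the GC trend removed the 18 h value was 0.41 and passed (adjusted p = 0.00325).

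No clone differed from parental cells in Mcoln1 at the threshold, and the nearest was untreated #A-59 (log2 fold change 0.37, adjusted p = 0.05). At 6 h #B-20 was below #A-59 (−0.48, standard error 0.13, adjusted p = 0.00723), a call lost in 8 of 18 leave-outs (−0.67 to −0.26, nearest to 0 without replicate 1 of #A-59 at 6 h) and with the GC trend removed (−0.34). The #B-20 response at 18 h was lost in 14 of 18 (0.37 to 0.52). The parental calls were lost without any 1 of the 4 libraries compared at 6 h (0.49 to 0.61), and at 18 h without replicate 2 at 0 h or replicate 1 at 18 h (0.52 to 0.65).

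Counted over the 9 tested members, 3 differed between #A-59 and parental cells at 0 h (Tfeb, Mitf and Rragc), where 9.56% of all tested genes passed. At 6 h it was 3 (Tfeb, Mitf and Rragd), with 22.7% of all genes, and at 18 h 4 (Tfeb, Mitf, Rraga and Rragc), with 10.4%. In #B-20 only Tfeb passed at 0 and 18 h, and Tfeb and Rragd at 6 h, with 10.7%, 14.2% and 14.2% of all genes at 0, 6 and 18 h. Tfeb was itself the targeted gene. With the fold threshold the counts were 2, 3 and 2 in #A-59 (4.78%, 7.91% and 4.92% of all genes) and 1 at each time in #B-20 (5.16%, 6.73% and 6.21%). The single DEG of #B-20 at 6 h was Rragd. In both clones the calls of Rragd are description only, as it entered the test only through parental libraries. The median log2 fold change of the members against parental cells lay between −0.13 and 0.22 over the 6 comparisons, and that of all tested genes between −0.02 and 0.01. Both clones are compared with the same parental libraries at each time, so that their counts are set side by side only. Between the clones, 2, 3 and 2 members differed at 0, 6 and 18 h, with 8.41%, 18.7% and 16.2% of all genes, and 1 was a DEG, Mitf at 18 h (3.85%, 5.82% and 4.82% of all genes at the 3 times).

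**Figure D4:**
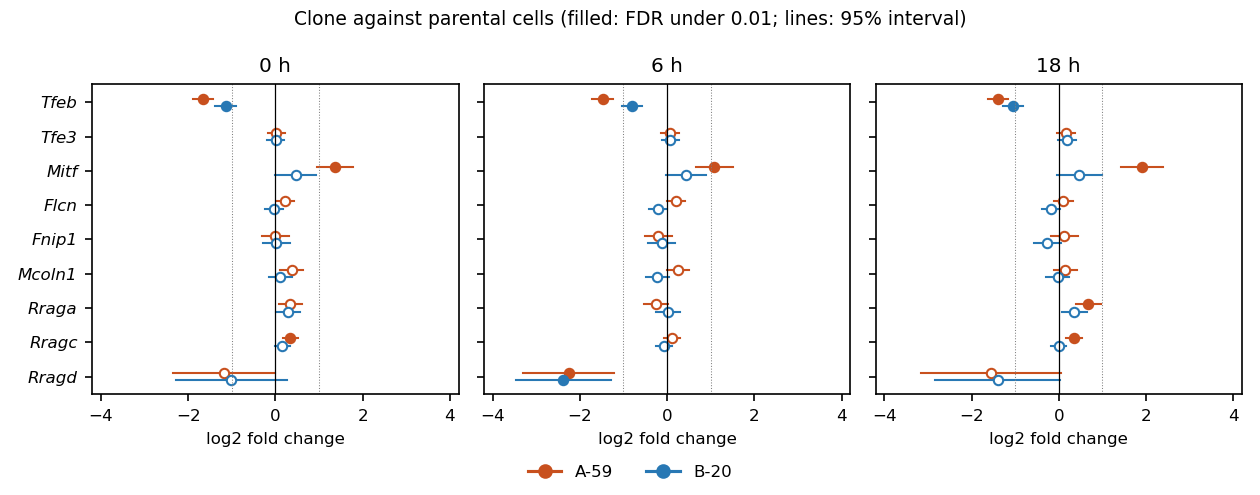
Log2 fold change of A-59 and B-20 against parental cells for the 9 tested members at 0, 6 and 18 h (x axis, log2 scale). Points are fitted values, lines 95% intervals, filled points have an adjusted p under 0.01, and dotted lines mark −1 and 1; Tfeb is to the left in both clones at all times, Mitf to the right in A-59 only by the test, and the intervals of Rragd are the widest.

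Between stimulated and untreated parental cells, 4 of the 9 members differed at 6 h (Tfe3 lower, Flcn, Rragc and Mcoln1 higher), against 7.34% of all tested genes. At 18 h it was also 4 (Tfe3 and Rraga lower, Flcn and Mcoln1 higher), against 32.6%. In #A-59 3 passed at 6 h and 2 at 18 h (6.14% and 31.8% of all genes), and in #B-20 1 and 1 (1.29% and 22.8%). No member was a DEG in any of these 6 comparisons by edgeR or by DESeq2. By edgeR, 2.62% of all genes were DEGs in parental cells at 6 h and 10.3% at 18 h, 1.39% and 8.76% in #A-59, and 0.385% and 4.8% in #B-20. At an unadjusted p under 0.05, 6 and 7 members passed in parental cells at 6 and 18 h, 4 and 6 in #A-59, and 3 and 5 in #B-20. The share of all genes at this looser cutoff is not given, so these counts are description only.

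Differences in response between clone and parental cells were tested as the interaction of clone and stimulation. Of the 9 members, 0 passed in each of the 4 interactions, by edgeR and by DESeq2. At an unadjusted p under 0.05 it was 1 in #A-59 (Rraga, adjusted p = 0.118) and 1 in #B-20 (Tfeb, adjusted p = 0.627) at 6 h, and 0 in both at 18 h. A response that passed in parental cells and not in a clone is therefore not shown to differ between them. Of all tested genes, 0.646% and 0.0392% passed in the 6 h and 18 h interactions of #A-59, and 0.183% and 0.222% in those of #B-20.

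**Figure D5:**
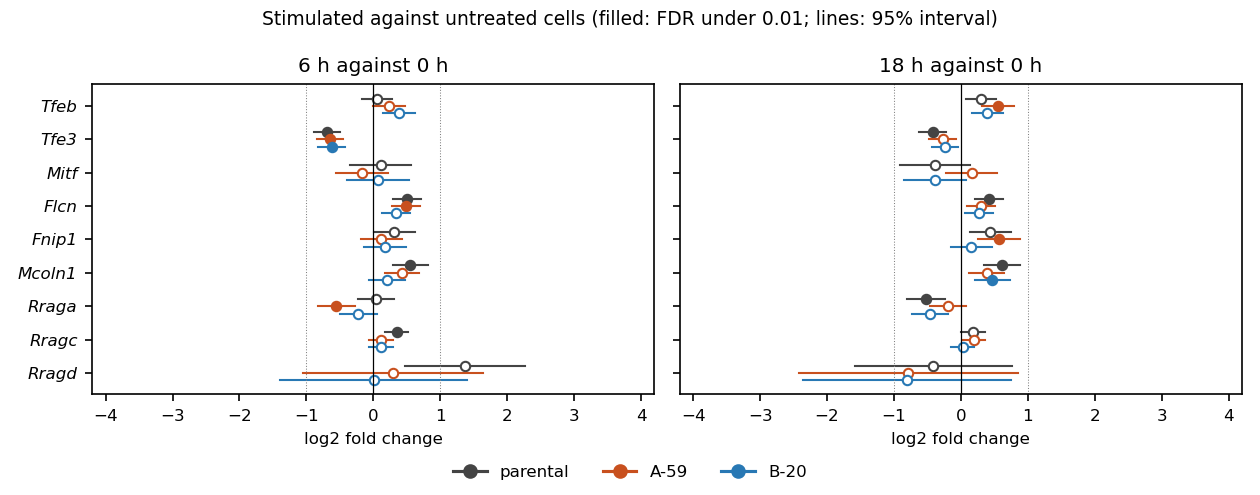
Log2 fold change of cells stimulated for 6 or 18 h against untreated cells of the same genotype for the 9 tested members (x axis, log2 scale). Points are fitted values, lines 95% intervals, and filled points have an adjusted p under 0.01; Tfe3 is lower at 6 h in all 3 genotypes, and Flcn and Mcoln1 lie to the right of 0 throughout.

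Of the genes around the Rag GTPases, which sense amino acids and recruit mTORC1, 25 of a list of 28 were tested. Lamtor3, a Ragulator subunit, and Wdr59, a subunit of the GATOR2 complex, were higher than in parental cells in 5 and 6 of the 6 comparisons, in which both clones are set against the same parental libraries. Genes of the list that were higher in #A-59 numbered 4, 9 and 4 at 0, 6 and 18 h, and the lower ones 1, 2 and 4. The corresponding numbers of #B-20 were 3, 4 and 4 higher and 1, 2 and 5 lower. In #A-59 these make up 20%, 44% and 32% of the list, beside 9.56%, 22.7% and 10.4% of all genes, and in #B-20 16%, 24% and 36%, beside 10.7%, 14.2% and 14.2%. Among the higher genes of #A-59 at 6 h were the Ragulator genes Lamtor2 (0.66), Lamtor4 (0.86) and Lamtor5 (0.50) and the lysosomal arginine sensor Slc38a9 (0.77). The median log2 fold change of the list lay between −0.01 and 0.12 over the 6 comparisons, where that of all genes lay between −0.02 and 0.01.

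With stimulation of parental cells, 1 gene of the list was higher and 0 lower at 6 h (4% of the list, beside 7.34% of all genes), and 9 were higher and 2 lower at 18 h (44%, beside 32.6%). Sesn3, of the sestrin family of leucine sensors, rose in parental cells from 62.9 and 72.7 CPM at 0 h to 236.4 and 236.0 CPM at 18 h (log2 fold change 1.80, adjusted p = 1.48e-09). It also rose in #A-59, from 42.1 and 45.0 to 137.6 and 133.9 CPM (1.64, adjusted p = 4.01e-09), and in #B-20, from 61.8 and 62.3 to 166.8 and 152.5 CPM (1.36, adjusted p = 1.21e-07). At 18 h Sesn3 was below parental cells by −0.80 and −0.57 in the 2 clones (adjusted p = 1.77e-05 and 0.00047), and in #A-59 also before stimulation (−0.64, adjusted p = 0.000253). Castor2, a paralog of the arginine sensor Castor1, rose in parental cells from 6.26 and 8.15 to 21.9 and 24.5 CPM (1.69, adjusted p = 1.67e-06) and in #A-59 from 5.89 and 5.33 to 12.9 and 11.4 CPM (1.11, adjusted p = 0.000277). In #B-20 the change of Castor2 from 5.96 and 3.35 to 7.29 and 8.51 CPM did not pass (0.77, adjusted p = 0.0121). Both clones were below parental cells in Castor2 at 18 h (−0.94 and −1.56, adjusted p = 0.00197 and 8.22e-06). Castor1 itself was near 1 CPM in untreated parental cells and rose 1.26 by 6 h and 1.19 by 18 h on the log2 scale (adjusted p = 0.00251 and 0.00176). Kics2, a subunit of the KICSTOR complex, fell in parental cells by 18 h (−1.21, adjusted p = 2.17e-06). In the 4 interactions of clone and stimulation 0 genes of the list passed by edgeR or DESeq2. By edgeR 1 to 6 had an unadjusted p under 0.05, which is description only.

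All 16 genes of mTORC1 and the TSC complex on the list used were tested, and edgeR called 0 of them in 5 of the 6 clone comparisons. There between 1 and 4 had an unadjusted p under 0.05, which is description only. DESeq2 called 1 in #A-59 at 0 h, 1 at 18 h and 0 in #B-20. By DESeq2, 1536 and 1694 of the 15318 tested genes passed in #A-59 at 0 and 18 h. In #A-59 at 6 h, Rheb, the GTPase that activates mTORC1, and its relative Rhebl1 were lower (log2 fold change −0.57 and −0.64). That is 12.5% of the list, beside 22.7% of all genes. With a GC correction 5 were lower, where 3879 of the 15318 tested genes passed in either direction. The median of the list lay between −0.18 and 0.00 over the 6 comparisons. In parental cells 1 gene was higher and 4 lower at 18 h (31.2% of the list, beside 32.6% of all genes), among them Eif4ebp1, a substrate of mTORC1, at −1.05 (adjusted p = 0.000375). A further list held 21 genes tied to the localisation of TFEB in any cell type, all tested. In #A-59 0 were higher and 2, 2 and 3 lower at the 3 times. In #B-20 1, 1 and 3 were higher and 2, 3 and 2 lower. The medians of both clones lay between −0.08 and 0.06. The genes that passed are 9.52%, 9.52% and 14.3% of the list in #A-59 and 14.3%, 19% and 23.8% in #B-20, beside the shares of all genes given above. The calcineurin subunit gene Ppp3ca, named after its values were seen, was lower in all 6 comparisons, by −0.79 to −1.26 in #A-59 and −0.91 to −1.08 in #B-20. The protein kinase C gene Prkca, named in the same way, was lower in #A-59 and higher in #B-20 at each time (−1.82 and 1.65 at 6 h).

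Of 25 tested genes of a list of 29 known lysosomal targets of the MiT/TFE factors, 9 were higher and 0 lower in parental cells at 6 h (3.1% and 4.24% of all tested genes), and 15 higher and 0 lower at 18 h (16.4% and 16.2%). Their median log2 fold change was 0.31 and 0.40, beside 0.01 and 0.04 over all genes. In #A-59, 4 were higher and 1 lower after 6 h (2.45% and 3.69% of all tested genes), and 13 and 1 after 18 h (14.7% and 17.1%). In #B-20 edgeR and DESeq2 both called 0 after 6 h, where 9 had an unadjusted p under 0.05. By edgeR, 0.411% of all tested genes were higher and 0.875% lower at that time. After 18 h 12 genes of the list were higher and 1 lower by edgeR (11.4% and 11.4% of all tested genes). In the 4 interactions of clone and stimulation edgeR called 0, with 2 to 6 at an unadjusted p under 0.05, and DESeq2 called 2 in #B-20 at 6 h. By DESeq2, 96 of the 15318 tested genes passed in that interaction. Counts at an unadjusted p are description only. Examples in parental cells at 18 h were Ctsa (0.98) and Tpp1 (0.72), genes of lysosomal hydrolases. The clones differed from each other in this list. Against parental cells, 4, 4 and 3 were higher and 2, 4 and 2 lower in #A-59 at the 3 times. Of all tested genes, 5.09%, 11.4% and 4.75% were higher there and 4.47%, 11.3% and 5.68% lower. In #B-20, 1, 1 and 0 genes of the list were higher and 9, 12 and 8 lower. Here 4.03%, 6.23% and 5.7% of all genes were higher and 6.66%, 8% and 8.55% lower. In both clones the lower genes of the list at 6 h include Ppargc1a, which is given below as description only. The median of the list was 0.05, −0.01 and 0.05 in #A-59 and −0.24, −0.45 and −0.21 in #B-20.

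Compared directly, #B-20 was lower than #A-59 in 8, 14 and 11 of the 25 genes at 0, 6 and 18 h and higher in 0, where 5.67%, 10.6% and 8.09% of all genes were lower. The log2 fold changes of #B-20 against #A-59 followed GC content across genes with a Spearman's rho of −0.40, −0.45 and −0.07 at the 3 times. With the trend removed, 10, 13 and 12 genes of the list were lower, where 1293, 2612 and 3108 of the 15318 tested genes passed in either direction. Against parental cells, the same correction left 5, 14 and 8 genes of the list lower in #B-20. There 1705, 2476 and 2717 of all tested genes passed in either direction. Ppargc1a, the gene of a mitochondrial coactivator on this list, had 15 and 18 counts in parental cells at 6 h and 0 in both #A-59 libraries, and was at least 4.72-fold lower there by a floor of 3 counts per library. In #B-20 it had 0 and 1 counts at 6 h. No library of another group held more than 5 counts, so Ppargc1a entered the test only through parental cells at 6 h. Its lower level in the clones at that time is therefore given as description only.

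The genes whose levels ran most like those of a member over the 18 libraries were sought among 11042 genes with a mean of at least 50 counts, by Pearson's r of log2 CPM. Most like Tfeb was Ifnar1, a chain of the type I interferon receptor (r = 0.96). Most like Tfe3 were Nfkb1 (r = 0.94), Jade2 (0.93) and Nfkb2 (0.92). Vps11 ran most like Mcoln1 (r = 0.95), Slc66a1 like Flcn (0.92), Hoga1 like Mitf (0.92), Ndfip1 like Fnip1 (0.92), Asah1 like Rragc (0.88) and Ptpn11 like Rraga (0.84). Nckap1 was most like Rragd (0.93). Among the members, Tfeb and Mitf ran opposite to each other (r = −0.84), and Flcn and Mcoln1 alike (r = 0.80). These values describe 18 libraries in 9 groups that share genotype and time, and the libraries are not independent points.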

How the data were processed

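RNA was sequenced from 18 libraries. The authors prepared mRNA libraries without strand information, aligned the single-end reads to GRCm38 and deposited whole-number counts per Ensembl gene, not normalized. The submitters' processing notes name bcl2fastq 2.20.0.422, STAR 2.5 and featureCounts 1.5.0-p1. All other values were computed from these counts. Groups follow the sample labels. Symbols, GC content and exon lengths came from GENCODE vM39, which held 93.2% of the 55487 gene identifiers. Coordinates and promoters came from RefSeq on GRCm38.p6, matched by symbol.

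In R 4.3.3, edgeR 4.0.16 was used with filterByExpr (15318 genes kept), TMM scaling and a robust quasi-likelihood model with 1 mean for each of the 9 groups, fitted to all 18 libraries as 2 libraries per group give few degrees of freedom. Benjamini-Hochberg adjusted p-values cover all genes tested. Counts of members or list genes at an unadjusted p under 0.05 have no share of all genes beside them and are description only. The thresholds for a DEG (FDR under 0.01, log2 fold change beyond 1 in either direction) are those of the study's methods. Alternatives were DESeq2 1.42.0, its size factors in edgeR, other filters on low counts, only the libraries compared, the replicate number as a block, a GC correction (loess, span 0.5, known for 99.2% of tested genes), and each library left out in turn. The fits were tested on simulated data. The pathway genes named are DEGs in both clones at 1 time or in stimulated parental cells, and the genes most like a member are the 3 of highest r, of which some are named. Outside this rule, Lamtor2, Lamtor3, Lamtor4, Lamtor5, Wdr59, Slc38a9, Rheb, Rhebl1, Ppp3ca, Prkca, Ctsa and Tpp1 were named after their values were seen. The members, gene lists and tests were chosen with earlier results of these data known. Where the symbol on a list had been renamed, such as Bmt2 to Samtor, the current one was used. Depth was 11223588 to 29655262 counts per library. The floor used for counts of 0 covers only counting error, as no molecular identifiers mark independent molecules.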

Additional observations from a re-analysis of the deposited data

Results flagged for a closer look

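The 2 clones differed from each other, by the test of the difference itself, in 5 members. Each log2 fold change is that of #B-20 against #A-59 from edgeR's quasi-likelihood fit. Tfeb was higher in #B-20, by 0.51 and 0.67 at 0 and 6 h (adjusted p = 0.00436 and 0.000206). Mitf was lower, with −0.90 and −1.44 at 0 and 18 h (adjusted p = 0.0051 and 2.88e-05). At 6 h Flcn (−0.41, adjusted p = 0.00455) and Mcoln1 (−0.48, adjusted p = 0.00723) were lower, and at 18 h Rragc was lower (−0.35, adjusted p = 0.0042). Of all tested genes, 8.41%, 18.7% and 16.2% passed the same test at 0, 6 and 18 h, and of the 9 members 2, 3 and 2. Only Tfeb at 6 h and Mitf at 18 h kept the call under every alternative and with each library left out. With the GC trend removed, Flcn and Mcoln1 at 6 h did not pass. Samples were not screened for single outlying values, because each group holds 2 libraries.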

How the results depend on the processing

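Of 36 differences of single members that passed, 11 kept their direction and their adjusted p under 0.01 under every alternative and with each library left out. These were Tfeb in both clones at all 3 times, Mitf in #A-59 at 0 and 18 h, Tfe3 in parental cells at 6 h, and between the clones Tfeb at 6 h and Mitf at 18 h. The other 25 lost the call somewhere, and none of the 36 changed direction. Rragd and Mitf are limited by their counts. Where an arm was left with 1 library, that library was assumed to vary like the other groups.

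Counts are of the 9 members that passed, with the cause of a change not tested. The number of all genes that passed moved with the setting too. Counts of members in this section with no number of all genes beside them are description only. With a GC correction, 4 passed in #A-59 at 18 h against 0 h (2 before), 4 in #B-20 (1 before) and 4 between the clones at 18 h (2 before). Of all 15318 tested genes, 5577, 3991 and 3108 passed there (4876, 3488 and 2476 before). The correction left 0 DEGs in #B-20 against parental cells at 0 and 18 h (1 each before) and gave 1 between the clones at 0 h (0 before). Of all genes, 739, 983 and 526 were DEGs there (790, 951 and 589 before). Fnip1 between the clones at 6 h turned from 0.08 to −0.28 (−0.29 with the replicate block as well). DESeq2 gave 3 in #B-20 at 18 h against 0 h and 1 between the clones at 0 h, and its size factors in edgeR gave 2 in the former. Without a filter on low counts it was 3 there, 2 in #B-20 against parental cells at 18 h (0 DEGs), and 1 DEG in parental cells at 6 h, and Tfe3 in untreated #B-20 turned from 0.01 to −0.0114. With at least 10 counts in every library it was 2 in #B-20 at 18 h against 0 h, and 1 with 0 DEGs in #B-20 against parental cells at 6 h, since Rragd was left out. Only the libraries compared left 0 in #A-59 at 6 h and #B-20 at 18 h against 0 h, and 1 between the clones at 0 and at 6 h, with fewer libraries to estimate the spread. In these comparisons 49 of 14072, 2458 of 14148, 1474 of 13563 and 926 of 13823 tested genes passed.

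With the longest transcript the share of Tfeb was 73.2%, 81.7% and 81.8% in parental cells, 44.7%, 58.9% and 58.2% in #A-59, and 54.8%, 70.3% and 65.2% in #B-20 at 0, 6 and 18 h.

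The replicate numbers were not used as pairs in the main fit. The labels do not say whether equal numbers mark the same experiment. Deviations of equal numbers correlated weakly, with r from −0.03 to 0.32, over 0.1 in 14 of 36 pairs of groups. In all 9 groups the mean r was above 0, a hint of pairing from the data only, so that pairing cannot be decided here. With the replicate block, 5363 and 3972 of the 15318 tested genes passed at 18 h against 0 h in #A-59 and #B-20 (4876 and 3488 before). Of the members, 4 and 3 passed. With block and GC correction it was 5 and 4 there, 2 in #B-20 at 6 h against 0 h, 6 and 5 between the clones at 6 and 18 h, 1 DEG between them at 0 h, and 2 with 0 DEGs in #B-20 against parental cells at 18 h and 0 DEGs at 0 h. The block changed no other count of members by over 1.5 times.

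With each library left out, the members that passed numbered 2 to 5 in #A-59 against parental cells at 6 h and 2 to 4 at 18 h, and 1 to 2 in #B-20 at 6 and at 18 h (0 to 1 DEGs at both). Against 0 h they numbered 1 to 4 at 6 h and 0 to 5 at 18 h in parental cells, 1 to 3 and 0 to 4 in #A-59, and 0 to 1 and 0 to 3 in #B-20. Between the clones they numbered 0 to 2, 1 to 4 and 1 to 3 at 0, 6 and 18 h. Fnip1 between the clones at 6 h ranged from −0.24 to 0.45, and Tfe3 in untreated cells from −0.0707 to 0.12 in #A-59 and from −0.0887 to 0.10 in #B-20.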
